A study of Mus musculus with 16 samples.

Results

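The genes described are those for the enzymes that hold, use and restore glutathione and for the enzymes that remove superoxide and peroxides in pancreatic islets of the 8 founder strains of the Diversity Outbred mouse population. Members were chosen by gene name, by a rule that uses no measured value although earlier results of these data were known: the glutathione S-transferases of the alpha, mu, pi, theta, omega and kappa classes with Gstcd, the glutathione peroxidases, the peroxiredoxins, the superoxide dismutases, the cytosolic and mitochondrial thioredoxins with the thioredoxin reductases, and Cat, Gsr, Gclc, Gclm, Hmox1 and Srxn1. This gave 49 of the 54146 genes listed, of which 42 passed the filter on low values and were among the 15204 genes tested.

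Glutathione is a tripeptide that carries reducing power in its thiol group. It is made by glutamate-cysteine ligase, whose catalytic subunit is Gclc and whose modifier subunit is Gclm, and oxidized glutathione is reduced again by Gsr. Glutathione peroxidases use it to reduce peroxides, and glutathione S-transferases join it to electrophiles so that they can be exported. Superoxide dismutases turn superoxide into hydrogen peroxide, which catalase, the glutathione peroxidases and the peroxiredoxins remove. Thioredoxins and their reductases recycle the peroxiredoxins, and sulfiredoxin, encoded by Srxn1, rescues peroxiredoxins that have been over-oxidized. Many of these genes are switched on by the transcription factor NRF2 under oxidative or electrophilic stress, and beta cells are known for low catalase and glutathione peroxidase activity.

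RNA was measured by sequencing in whole islets from male and female mice, 26 weeks of age, that had all received a high-fat diet. No group on another diet was part of the comparison, so each value describes islets under that diet. The strains, with the short names used here, were 129S1_SvImJ (129, 10 libraries), A_J (AJ, 14), C57BL/6J (B6, 18), CAST_EiJ (CAST, 14), NOD_ShiLtJ (NOD, 10), NZO_HlLtJ (NZO, 4), PWK_PhJ (PWK, 5) and WSB_EiJ (WSB, 16). The 91 libraries stood under 16 labels, 1 for each strain and sex. NZO had 3 female libraries and 1 male library, and PWK had 1 female library and 4 male libraries. The labels do not say that each library came from a different mouse, so p-values measure the spread between libraries.

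Libraries held between 16928552 and 35196145 estimated reads. No 2 libraries held identical values, and the markers of beta cells were high in every strain. Sex-linked genes contradicted the sex label in 12 libraries, of which 129 had 6, WSB had 4 and NOD had 2. The summed level of 7 acinar markers ran from 1584 to 277989 TPM (RSEM's measure of level per transcript length), with strain medians from 5488 TPM in AJ to 95582 TPM in NOD. The summed level of 7 lymphocyte markers had a median of 848 TPM in NOD against medians of 7.44 to 87.8 TPM in the other strains. Library numbers 1 to 32 and 34 to 65 held AJ, B6, CAST and WSB, whereas 129, NOD, NZO and PWK had numbers from 66 to 100 only, so these strains and their number range cannot be told apart. In these bulk samples, fewer cells of a type and less RNA per cell cannot be told apart either.

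Compared per transcript length over all libraries, 41 of the 49 genes reached a mean of 1 TPM, 25 reached 10 TPM and 9 reached 50 TPM. The 3 above 100 TPM were Gpx3, the secreted plasma glutathione peroxidase, at 225 TPM, Sod1, the cytosolic copper-zinc superoxide dismutase, at 215 TPM, and Gpx4, which reduces lipid hydroperoxides in membranes, at 105 TPM. Cat stood at 5.74 TPM. Of each class of glutathione S-transferase the most abundant member was Gstp1 at 75.8 TPM, Gstm1 at 45.9 TPM, Gstt1 at 21.7 TPM, Gsto1 at 11.8 TPM, Gstk1 at 6.58 TPM and Gsta4 at 1.45 TPM. Among the members, the pi and mu classes thus supplied most transferase transcripts, and the alpha class was close to the lower limit. The zeta class gene Gstz1, which is outside the rule for members, stood at 77.5 TPM.

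Which of these genes differed between strains was asked with an additive fit of strain and sex over all tested genes. The values given below, unless named as TPM, are normalized counts, that is estimated reads divided by the relative effective size of the library. A gene was called at an adjusted p under 0.05 in the quasi-likelihood test of edgeR, with p-values adjusted over all genes tested by the method of Benjamini and Hochberg. All 42 tested members differed between strains, as did 97.4% of all genes, so a size was needed as well. At least 2-fold between the highest and the lowest strain was met by 22 of the 42 against 44.4% of all genes. The median log2 difference between those strains was 1.13 for the members and 0.87 for all genes tested.

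Differences of this size were spread unevenly over the families. Each of the 3 tested theta class genes, 5 of the 6 tested mu class genes, both omega class genes, both tested alpha class genes and 4 of the 6 tested glutathione peroxidases passed the 2-fold limit. Of the 5 thioredoxins and thioredoxin reductases none did, the highest being Txn1 at 0.99 on the log2 scale, and none of the 3 genes of glutathione synthesis and recycling did. Prdx2, a cytosolic peroxiredoxin, differed least, by 0.22 ± 0.06 (log2, SE). NOD was the highest strain for 12 members and NZO for 11, and AJ was the lowest for 11 and PWK for 8. The matching shares of all genes were not computed, so these counts only describe the members. TPM and normalized counts named the same highest strain for 33 of the 42 and the same lowest strain for 28.

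**Figure D1:**
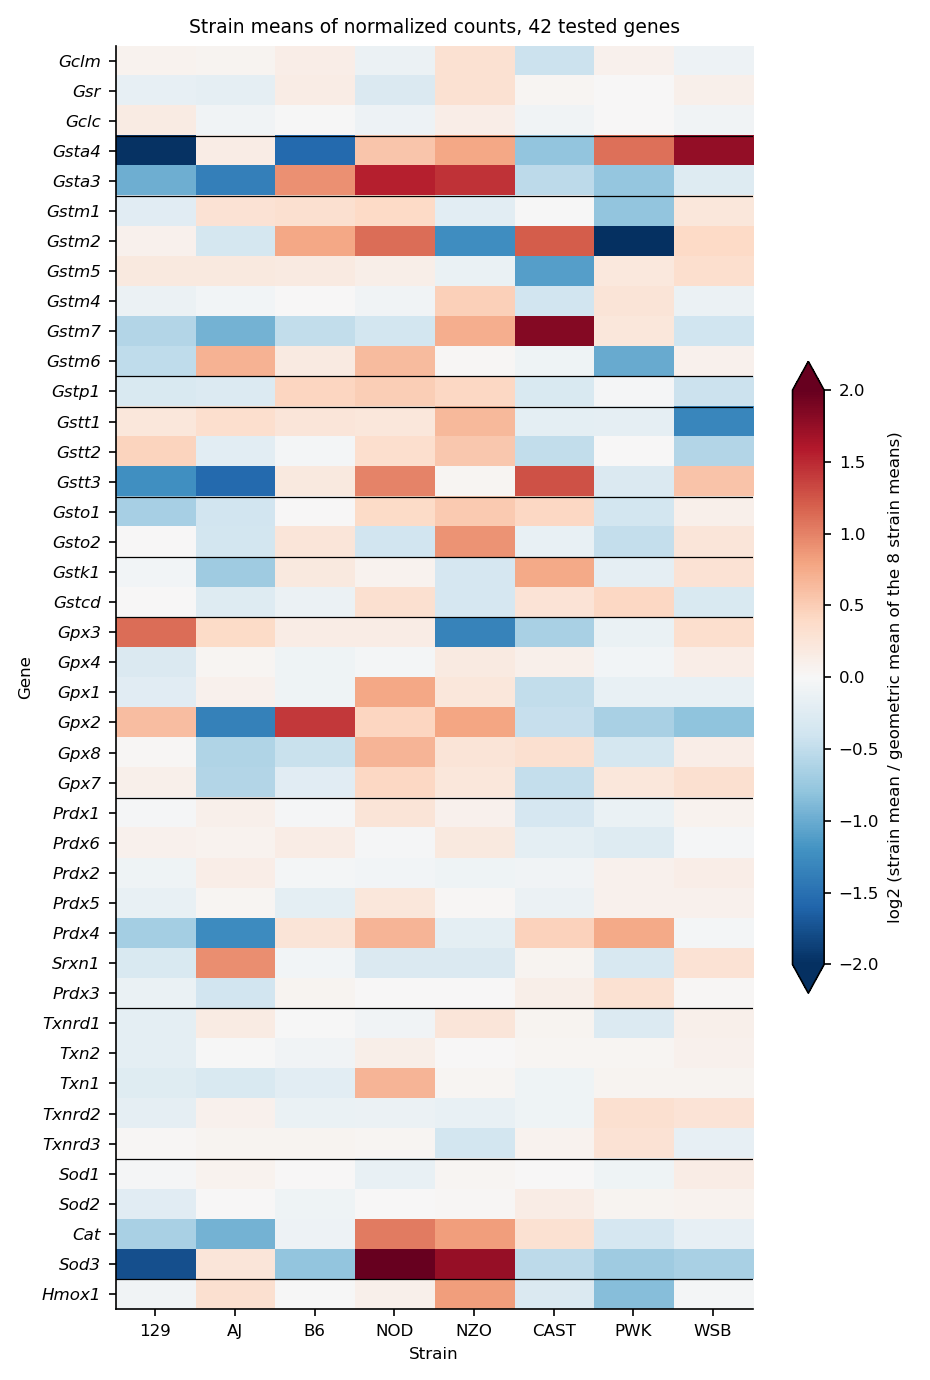
Heat map of the 42 tested genes (lines, grouped by family) in the 8 strains (columns), where colour is the log2 ratio of the strain's mean normalized count to the geometric mean of the 8 strains, cut at 2 in either direction. The strongest colours are Sod3 in NOD, NZO and 129, Gsta4 in WSB and 129, Gstm2 in PWK and Gstm7 in CAST, while Txn2, Prdx2 and Gclc are pale in every strain.

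Against B6, the strain to whose genome reads were aligned, the count of members that differed was 16 in 129 (3 higher, 13 lower; 40.6% of all genes), 21 in AJ (8 higher, 13 lower; 45.6%) and 23 in CAST (9 higher, 14 lower; 48.8%). It was 20 in NOD (13 higher, 7 lower) against 64.7% of all genes, and 18 in NZO (13 higher, 5 lower) against 37.2%. PWK gave 20 (9 higher, 11 lower) against 49.5%, and WSB gave 20 (12 higher, 8 lower) against 49.8%. These comparisons share the B6 libraries. The members' shares ran from 38.1% to 54.8% and were thus near those of all genes, with the largest gap below it in NOD, at 47.6%.

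A member was called strain-selective where 1 strain differed from each of the other 7 at adjusted p under 0.05. By this rule 11 members were higher in 1 strain, which is 26.2% of those tested against 25.8% of all genes, and 13 were lower in 1 strain, 31% against 21.7%. CAST had 4 of the low calls (Gstm5, Gstm4, Gclm and Prdx1) and 2 of the high calls (Gstm7 and Gstk1). Of all genes, 3.51% were selectively low and 2.49% selectively high in CAST. NOD had 3 high calls (Sod3, Gpx1 and Txn1), where 11.3% of all genes were selectively high, and 129 had 3 low calls (Sod3, Gpx4 and Txn2) against 0.927% of all genes. These counts of 1 to 4 genes are given as a description. Beside the losses given with each gene below, the high calls of Sod3, Gstm7, Gstk1 and Gsto2 and the low call of Hmox1 were lost with counts summed per strain and sex. In TPM the high calls of Gsto2 and Prdx3 and the low calls of Sod3, Gpx3 and Hmox1 were lost. Prdx3 also lost its high call with TMM scaling, DESeq2 and the lymphocyte covariate. Hmox1 lost its low call with that covariate and in a fit without the NOD libraries.

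Among the enzymes that act on superoxide, Sod3, the extracellular superoxide dismutase, had the largest strain difference of the 42 tested members. Its counts in NOD were 118, 537 and 1113 (lowest, median and highest library), and in NZO they were 290, 241, 363 and 524. In 129 the lowest, median and highest were 11.6, 30.4 and 60.7, and in B6 they were 39.3, 59.7 and 96.2. Every NZO library and every NOD library lay above every 129 and B6 library, while NOD and NZO overlapped each other widely. The NOD minus 129 difference was 4.18 ± 0.25 (log2, SE; edgeR adjusted p = 1.43e-25). NOD was selectively high by 0.72 ± 0.30 over NZO at an adjusted p of 0.0431 in the same edgeR test, and this call was lost without NZO replicate 1, 2 or 3 (adjusted p from 0.0832 to 0.172). Sod3 in 129 was selectively low by 0.94 ± 0.22 under B6 (adjusted p = 0.000284).

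The intracellular dismutases differed little. Sod1 had strain means from 2689 ± 179 (SD, n = 10) in NOD to 3299 ± 261 (n = 16) in WSB, a log2 difference of 0.29 ± 0.04 (edgeR adjusted p = 5.98e-09). Sod2, the mitochondrial manganese enzyme, spanned 0.38 ± 0.07 from 129 to CAST (adjusted p = 2.44e-06). Cat, which breaks down hydrogen peroxide in peroxisomes, stood apart from both: it was 355, 654 and 1132 in NOD (lowest, median, highest), 518, 384, 474 and 1004 in NZO, and 111, 147 and 414 in AJ. Of the 10 NOD libraries, 9 lay above all AJ libraries, and 1 AJ library reached into the NOD range. The NOD minus AJ difference in Cat was 1.97 ± 0.27 (adjusted p = 4.91e-10).

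**Figure D2:**
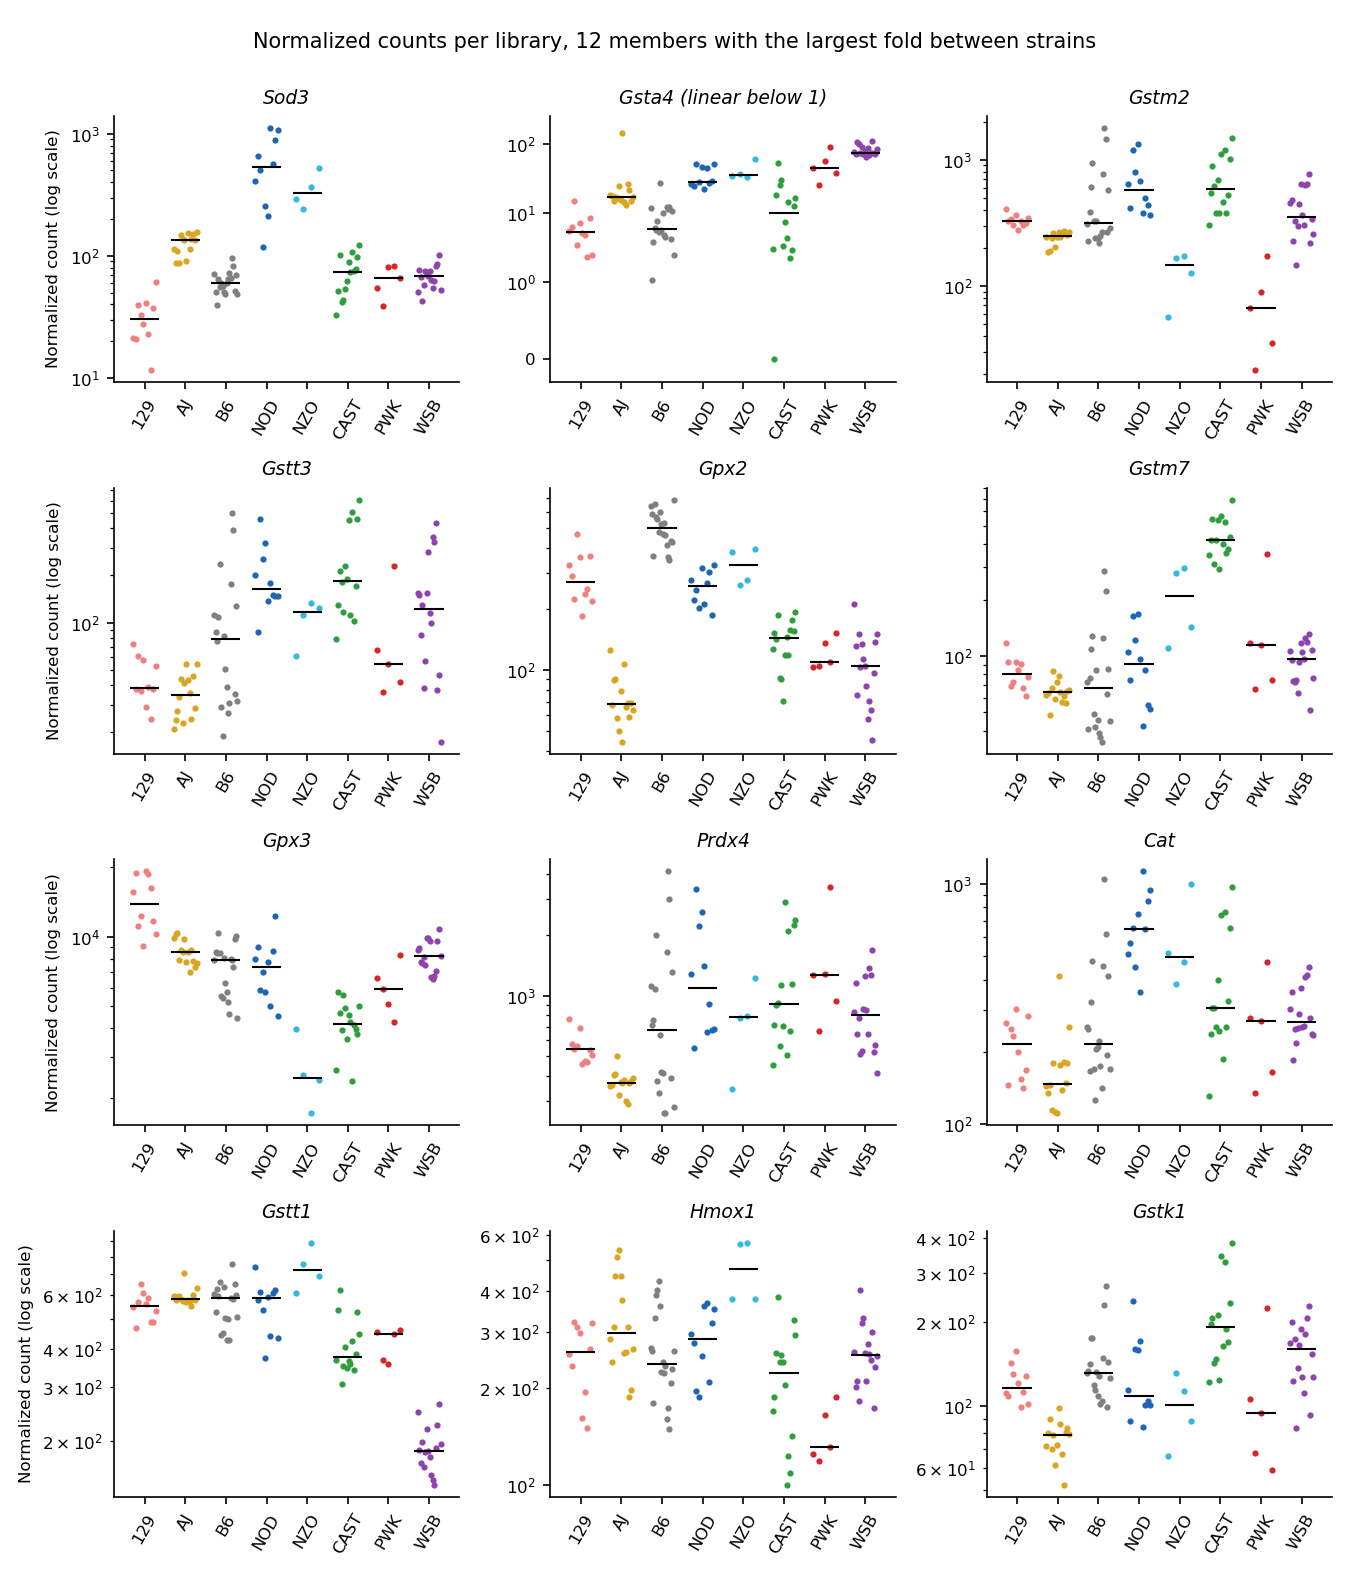
Normalized counts of the 12 genes with the largest strain differences in each of the 91 libraries, by strain, on a log axis (Gsta4 is linear below 1), with a line at the strain's median. Sod3 is high in NOD and NZO, Gstt1 is low in all 16 WSB libraries, Gpx2 is high in B6 and low in AJ, and Gpx3 is high in 129 and low in NZO.

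The glutathione peroxidases differed in which strain was highest. Gpx3 counts in 129 were 9156, 13921 and 19229 (lowest, median, highest), against 3965, 2506, 1712 and 2383 in NZO. All 129 libraries were above all NZO libraries, and the AJ libraries, at 7025 to 10393, lay above NZO and overlapped the lower 129 libraries. Gpx3 was selectively high in 129, by 0.76 ± 0.12 over AJ (edgeR adjusted p = 3.01e-07), and selectively low in NZO, by 0.77 ± 0.18 under CAST (adjusted p = 0.000241). The full 129 minus NZO difference was 2.54 ± 0.21 on the log2 scale (adjusted p = 3.93e-18).

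Gpx2, the glutathione peroxidase best known from the gut epithelium, was 348, 500 and 689 in B6 and 44.5, 67.9 and 126 in AJ. The groups did not overlap, and the B6 minus AJ difference was 2.79 ± 0.16 (edgeR adjusted p = 2.18e-28). B6 was selectively high by 0.65 ± 0.23 over NZO (adjusted p = 0.0159), whose libraries held 379, 261, 278 and 395, a call lost without NZO replicate 2 (0.0824) or replicate 3 (0.0733). AJ was selectively low by 0.55 ± 0.15 under WSB (adjusted p = 0.00157). Both selective calls of Gpx2 were lost with counts summed per sample and in TPM. The B6 to AJ difference was as large within each range of library numbers, with AJ minus B6 at -2.89 ± 0.21 in 1 to 32 and -2.71 ± 0.21 in 34 to 65. AJ minus WSB was -0.81 in the first of these ranges and -0.30 in the other, where edgeR's adjusted p was 0.244.

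Gpx1, the ubiquitous cytosolic form, was highest in NOD, at 1708, 2426 and 4018, and lowest in CAST, at 695, 1145 and 1565, with no overlap between these strains. NOD exceeded NZO, its nearest neighbour, by 0.56 ± 0.18 (edgeR adjusted p = 0.00892; 0.063 without NZO replicate 2). Gpx4 was selectively low in 129, where the mean was 1428 ± 136 (SD, n = 10) against 1643 ± 231 (n = 18) in B6, a difference of -0.20 ± 0.06 (adjusted p = 0.00598), and without PWK replicate 4 the selective call was lost (0.0791 against PWK). It was also lost with the acinar markers as a covariate, without the 12 libraries against their sex label, with counts summed per sample and in TPM. Per transcript length the direction turned, with Gpx4 at 98.3 TPM in 129 and 94.4 TPM in B6, and the normalized counts of the groups overlapped, at 1217 to 1671 and 1289 to 2009. Gpx7 and Gpx8, which reside in the secretory pathway, had means of 1.25 and 1.74 TPM, and NOD minus AJ was 0.98 ± 0.15 and 1.32 ± 0.22.

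Of the theta class, Gstt1 gave the cleanest separation. Its counts in WSB were 144, 186 and 264 (lowest, median, highest of 16 libraries), and in NZO they were 608, 757, 886 and 691. The lowest library of any other strain, in CAST, held 307, so that all 16 WSB libraries lay below every one of the other libraries. This pattern, every library of 1 strain below all others, was met by no other tested member and by 2.1% of all genes tested. Per transcript length the groups overlapped, since WSB reached 12.4 TPM while NOD went down to 10.9 TPM and CAST to 11.6 TPM. WSB was lower than CAST, its nearest strain, by 1.13 ± 0.07 (log2, SE; edgeR adjusted p = 3.8e-24), and NZO minus WSB was 1.90 ± 0.10. The CAST minus WSB difference was 1.07 ± 0.11 in library numbers 1 to 32 and 1.21 ± 0.10 in 34 to 65. CAST and PWK, next lowest, did not differ beyond their spread in Gstt1 (-0.08 ± 0.10, adjusted p = 0.58).

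A neighbour in the theta class cluster, Gstt2, had NZO minus WSB at 1.12 ± 0.18 (edgeR adjusted p = 1.66e-07). WSB was not set apart from CAST in this gene, since Gstt2 in CAST minus WSB was 0.10 ± 0.13 (adjusted p = 0.504). Gstt1, Gstt2 and Gstt3 lie within 1 stretch of chromosome 10, from 75774115 to 75837424 in mm10. Gstt3 did not share the pattern: its counts were 78.8, 186 and 608 in CAST, 17.4, 122 and 435 in WSB and 21, 34.6 and 54.3 in AJ. CAST lay wholly above AJ, by 2.82 ± 0.40 (adjusted p = 5.11e-09), and WSB spanned nearly the full range of both.

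The mu class genes are held together on chromosome 3, from 107895821 (Gstm5) to 108044894 (Gstm4) in mm10, and they did not move together between strains. Gstm5 was 102, 122 and 198 in CAST, and its lowest library in any other strain held 196, in NOD, so that the groups touched only there. CAST was selectively low, by 0.97 ± 0.11 under NZO (edgeR adjusted p = 1.85e-12). The CAST minus WSB difference was -1.48 ± 0.10 in library numbers 1 to 32 and -1.40 ± 0.10 in 34 to 65. Gstm7 went the other way, with 294, 421 and 691 in CAST against 48.6, 64 and 83.2 in AJ. NZO libraries, at 111, 278, 297 and 143, came nearest, and CAST exceeded them by 1.17 ± 0.35 (adjusted p = 0.00381), with 1 NZO and 1 PWK library inside the CAST range. So in the same CAST libraries a gene of this cluster was lowest and another was highest.

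Gstm2 had its low values in PWK and NZO. Its counts were 66.8, 21.5, 89.5, 173 and 35.3 in PWK and 56.5, 167, 171 and 126 in NZO. In CAST the lowest, median and highest were 303, 580 and 1492. No PWK or NZO library reached the lowest CAST library, and the CAST minus PWK difference was 3.19 ± 0.46 (edgeR adjusted p = 9.62e-09). Gstm1, the most abundant of the class, was also lowest in PWK, at 408 to 945, with NOD minus PWK at 1.14 ± 0.24 (adjusted p = 3.34e-05).

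Gstm4 was highest in NZO, at 329, 374, 371 and 336, and PWK followed at 318, 308, 285, 293 and 299. All 4 NZO libraries lay above every one of the other libraries, a pattern that 1 member and 2.64% of all genes met. In TPM they did not, with NZO at 9.25 to 11.1 and PWK reaching 11.2, NOD 10.8 and AJ 9.96. Even so, NZO minus PWK was 0.21 ± 0.12 (edgeR adjusted p = 0.14), so Gstm4 was not called selectively high. It was selectively low in CAST, at 128, 189 and 265, by 0.26 ± 0.06 under WSB (adjusted p = 0.000365), although these groups overlapped, and the call was lost without the 12 libraries against their sex label and with counts summed per sample. Gstm6, close to the lower limit at 0.785 TPM, spanned 1.75 ± 0.42 from PWK to AJ.

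**Figure D3:**
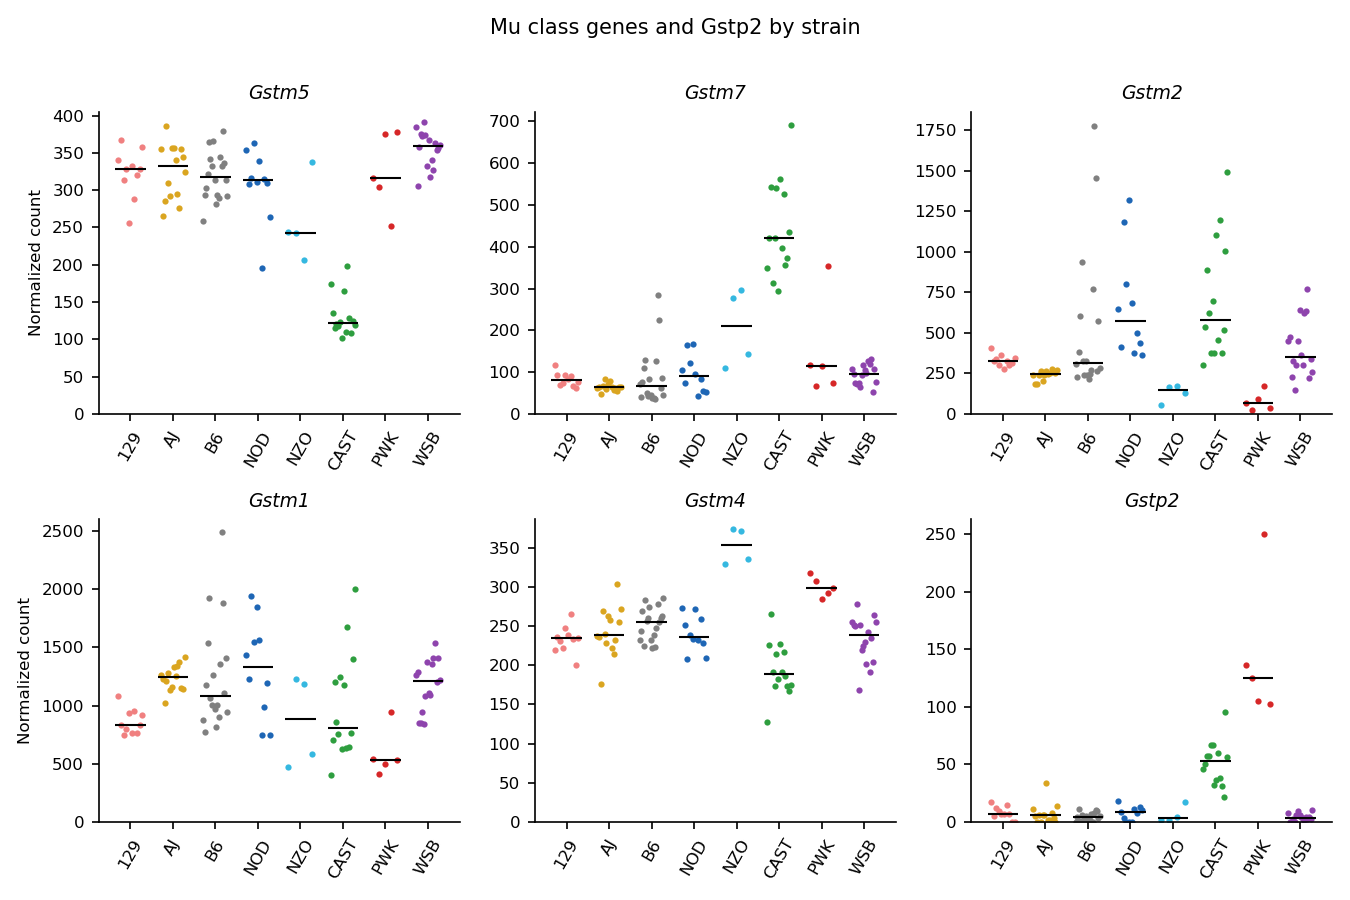
Normalized counts of Gstm5, Gstm7, Gstm2, Gstm1, Gstm4 and Gstp2 in each library by strain, with a line at the strain's median. CAST is low in Gstm5 (102 to 198) and high in Gstm7 (294 to 691), PWK is low in Gstm2 (21.5 to 173) and high in Gstp2 (102 to 250), and NZO is high in Gstm4 (329 to 374).

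The pi class held the most abundant transferase among the members, Gstp1. Its highest mean was in NOD (1741 ± 638, SD, n = 10) and its lowest in WSB (923 ± 197, n = 16), a difference of 0.94 ± 0.19 (edgeR adjusted p = 9.44e-06). Reads of near-identical copies can be split between genes, and such a copy was found here: the processed pseudogene Gstp-ps, on chromosome 1 at 192073820 to 192074450 in mm10, held 219 to 504 in WSB and strain means of at most 3.15 elsewhere. It was looked up after the values of Gstp1 were seen. Added to Gstp1, it gave 1248 ± 275 in WSB, above the sums of 1031 ± 116 in AJ, 1008 ± 121 in 129 and 1003 ± 290 in CAST. With the pseudogene counted in, WSB was thus not the lowest strain.

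Gstp2, the second pi class gene, was too low in most libraries to be tested. Its counts were 136, 125, 105, 250 and 102 in PWK and 21.6, 53 and 95.5 in CAST, and no library of the other strains exceeded 34. All PWK libraries thus lay above all CAST libraries, and the other strains overlapped CAST at the top of their range only through AJ. In WSB the median was 3.39. Gstp3, named after the M21 annotation and outside the rule for members, held 3.76 to 130 in NOD, with means of at most 4.46 in the other strains.

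The alpha class was low in islets. Gsta4, which conjugates the lipid peroxidation product 4-hydroxynonenal, was 64.3, 74 and 108 in WSB, 34.1, 36.3, 32.9 and 59.2 in NZO, and 2.33, 5.31 and 14.9 in 129. No WSB library was as low as any NZO, NOD or 129 library, while PWK, at 44.9, 25.6, 56.8, 89.8 and 38, reached into the WSB range. The WSB minus 129 difference was 3.71 ± 0.41 (edgeR adjusted p = 1.55e-12). AJ held 13.1 and 16.9 as its lowest and median values, but 140 in replicate 8, the highest library of all. Gsta3, at 0.952 TPM, spanned 2.92 ± 0.41 from AJ to NOD (adjusted p = 2.04e-09).

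Gstk1, the kappa class enzyme of mitochondria and peroxisomes, was 122, 193 and 384 in CAST and 52.2, 79 and 98.5 in AJ, with no overlap. The CAST minus AJ difference was 1.46 ± 0.17 (edgeR adjusted p = 2.13e-12), and CAST was selectively high by 0.45 ± 0.16 over WSB (adjusted p = 0.0103). Of the omega class, Gsto2 was selectively high in NZO, but its 4 libraries held 75, 87, 138 and 258 against 72 to 116 in WSB, and without NZO replicate 4 the call was lost (edgeR adjusted p = 0.44 against WSB). That library is the only male of NZO, and its macrophage markers summed to 156 TPM against 47.6 to 57.1 TPM in the other 3. It was also the highest NZO library for Cat (1004), Gpx1 (2422), Txn1 (1203) and Sod3 (524), and the part of sex or macrophages in these values was not tested. Gsto1 spanned 1.18 ± 0.21 from 129 to NZO.

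Of the 7 genes for peroxiredoxins and sulfiredoxin, 2 passed the 2-fold limit, Prdx4 and Srxn1. Prdx4, the peroxiredoxin of the endoplasmic reticulum, held 1265, 671, 1277, 3432 and 938 in PWK, 262, 678 and 4112 in B6 and 291, 372 and 502 in AJ. Every PWK library lay above every AJ library, and B6 spanned the range of both. The PWK minus AJ difference was 2.05 ± 0.41 (edgeR adjusted p = 1.38e-05). Prdx3, the mitochondrial form, was selectively low in AJ (510 ± 85.8, SD, n = 14) by 0.26 ± 0.07 under 129 (adjusted p = 0.00135), a call lost without the 12 libraries against their sex label and in TPM. It was selectively high in PWK at an adjusted p of 0.0499, a call lost without any 1 of PWK replicates 1, 2, 3 and 5 or NZO replicates 1, 2 and 3 (adjusted p from 0.0502 to 0.136). Prdx1 was selectively low in CAST, by 0.21 ± 0.08 under PWK (adjusted p = 0.0202, and 0.0748 without PWK replicate 3), and this call was also lost with TMM scaling, DESeq2, the lymphocyte covariate, summed counts and TPM.

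Srxn1 was selectively high in AJ, where its counts were 1316, 1828 and 6735 against 1437, 1769 and 3411 in WSB. The medians were close, and 5 of the 14 AJ libraries lay above all WSB libraries. The AJ minus WSB difference was 0.61 ± 0.16 (edgeR adjusted p = 0.00112). By library number, the AJ mean was 4161 ± 1940 (SD, n = 8) in numbers 1 to 32 and 1524 ± 146 (n = 6) in 34 to 65. AJ minus WSB was 0.86 ± 0.23 in the first range (adjusted p = 0.00268) and -0.21 ± 0.10 in the second (adjusted p = 0.0888). AJ minus CAST was likewise 1.24 ± 0.22 and -0.03 ± 0.11, and AJ minus B6 was 1.05 ± 0.22 and 0.37 ± 0.09. AJ was thus above B6, CAST and WSB in numbers 1 to 32 and above B6 only in 34 to 65, while the other 4 strains have no library in either range. What the ranges stand for is not given in the labels.

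Txnrd1, the cytosolic thioredoxin reductase, followed Srxn1 from library to library. With strain means removed, their log2 normalized counts correlated at Pearson r = 0.853 and Spearman rho = 0.83 over the 91 libraries. Permutation within strains gave p = 1e-05 for both, the smallest value that 100000 permutations can give, with adjusted values of 5.78e-05 and 6.88e-05 over all genes tested against Srxn1. Of these, 47.3% correlated with Srxn1 at an adjusted p under 0.05, in either direction, as did 16 of the other 41 members, a share below that of all genes. Without the 2 libraries farthest from the median r was 0.817, and within the 3 number ranges it was 0.852 (n = 31), 0.555 (n = 31) and 0.658 (n = 29). Hmox1 gave r = 0.502 overall (adjusted permutation p = 5.78e-05) and rho = 0.406 (adjusted permutation p = 0.00088), but 0.622, 0.161 and -0.314 within the ranges, so that relation did not hold within all of them. Gsr gave r = 0.285 and rho = 0.34 (adjusted permutation p = 0.0172 and 0.00419), with 0.0211, 0.317 and -0.12 within the ranges. Gclc gave 0.00238 (adjusted permutation p = 0.985). Gclm gave -0.188 (adjusted permutation p = 0.11), with -0.438, -0.373 and 0.457 within the ranges, so its pooled value joins opposite signs.

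**Figure D4:**
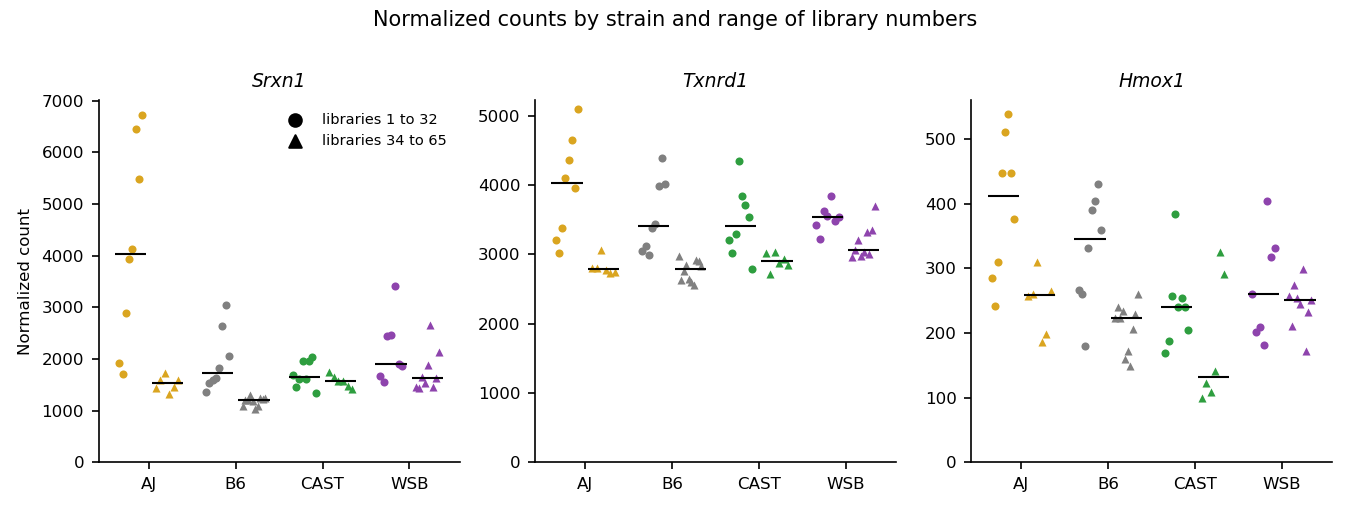
Normalized counts of Srxn1, Txnrd1 and Hmox1 in AJ, B6, CAST and WSB, with circles for library numbers 1 to 32, triangles for 34 to 65 and a line at each median. In AJ the Srxn1 mean is 4161 in the first range and 1524 in the second, and Txnrd1 has 3976 and 2818.

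Both thioredoxins had their highest mean in NOD, and neither passed the 2-fold limit. Other strains differed in Txn1 too, with AJ minus WSB at -0.36 (edgeR adjusted p = 0.000286). Txn1 was 750, 1150 and 2075 in NOD and 712, 823 and 1014 in WSB, the nearest strain, with NOD minus WSB at 0.63 ± 0.09 (edgeR adjusted p = 7.75e-09). The mitochondrial Txn2 was selectively low in 129 by only 0.13 ± 0.05 under B6 (adjusted p = 0.0216), and the call was lost without NZO replicate 3 (0.131 against NZO). The Txn2 call was also lost with the acinar covariate, without the libraries against their sex label, with summed counts and in TPM, where the direction turned (41.6 TPM in 129 and 36.2 TPM in B6). Txnrd1 spanned 0.53 ± 0.14 from PWK to NZO, Txnrd2 spanned 0.56 ± 0.13 from NZO to PWK, and Txnrd3 spanned 0.65 ± 0.19.

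The genes of glutathione synthesis and recycling had small differences. Gclm was 937, 1115 and 1309 in CAST, against 1744 to 2114 in NZO, with no overlap. NOD, nearest to CAST, held 991, 1438 and 1632 and overlapped it. CAST was selectively low by 0.31 ± 0.06 (edgeR adjusted p = 3.63e-06), and B6 minus CAST was 0.54 ± 0.06 in library numbers 1 to 32 and 0.56 ± 0.06 in 34 to 65. Gsr was selectively high in NZO (972, 1295, 1234 and 1097) by 0.15 ± 0.05 over B6 (adjusted p = 0.0255; 0.269 without NZO replicate 2 and 0.15 without replicate 3). It was selectively low in NOD by 0.10 ± 0.04 under AJ (adjusted p = 0.0246). Both Gsr calls were lost with TMM scaling, DESeq2, summed counts and TPM, and the NOD call also with the lymphocyte covariate and without the libraries against their sex label. The Gclm call was lost with summed counts. Gclc differed by at most 0.26 ± 0.05, from NOD to 129. The abundance-weighted transcript length of Gsr was 2216 ± 108 bases (SD, n = 10) in 129, 2257 ± 156 in AJ and 2321 ± 241 in NOD against 2623 to 2673 in the other strains. Gsr and Gclm were the 2 of 41 members whose length differed by more than 15% between strains.

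Because Srxn1 and Txnrd1 moved together, promoters were searched for the core of the antioxidant response element, the sequence bound by NRF2 with small Maf proteins. The letters TGACNNNGC were looked for on both strands from 250 bases before to 50 bases after each start in RefSeq (GRCm38.p6). Of the 42 members with such a window, 8 held a match (19%), against 3781 of 27025 genes (14%): Gclm, Prdx1, Txnrd1, Sod1, Srxn1, Gsta3, Gstm5 and Gstm7. Sod3, Gstt2, Gsr, Gsta4, Gclc, Prdx6 and Hmox1 had no window. A match describes the letters in the reference strain only. The 3 stretches below, shown because these genes are widely used as NRF2 targets, are printed 5′ to 3′ on the strand of the gene with the match in capitals, and each lies upstream of a start. They are chr3:122245387-122245467 for Gclm, chr4:116685430-116685510 for Prdx1 and chr10:82859078-82859158 for Txnrd1, all on the plus strand, with the match on the minus strand.
Gclm: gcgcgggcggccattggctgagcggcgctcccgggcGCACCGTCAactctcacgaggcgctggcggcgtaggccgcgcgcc
Prdx1: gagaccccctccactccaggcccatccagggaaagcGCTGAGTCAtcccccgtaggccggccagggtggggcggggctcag
Txnrd1: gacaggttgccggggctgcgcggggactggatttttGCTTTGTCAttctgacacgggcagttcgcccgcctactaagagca

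Srxn1 and Txnrd1 thus both hold the letters, which in Srxn1 lie after the start, as does Gclm, whose relation to Srxn1 changed sign between number ranges, and Prdx1, where r was 0.062 (adjusted permutation p = 0.584). Hmox1, heme oxygenase 1, which degrades heme and is itself a well-known NRF2 target, was 378, 560, 566 and 378 in NZO and 125, 119, 165, 131 and 187 in PWK, with no overlap. The NZO minus PWK difference was 1.67 ± 0.30 (edgeR adjusted p = 2.17e-06). The selective low call in PWK, 0.56 ± 0.24 under CAST, had an adjusted p of 0.0482 and was lost without any 1 of PWK replicates 1, 2, 3 and 4 (adjusted p from 0.0538 to 0.121).

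Part of the spread of these genes moved with the acinar markers. Within strains, 20 of 42 members correlated with the summed acinar markers over the 91 libraries at an adjusted permutation p under 0.05, 19 of them positively and Prdx1 negatively (r = -0.304). That is 47.6% of the members against 20.1% of all genes tested. Gstt3 gave r = 0.879 and rho = 0.904, Prdx4 gave 0.872 and 0.916, and Gstp1 gave 0.827 and 0.865. Gstm2 gave 0.787 and 0.815, and Gstm7 gave 0.757 and 0.8. Each of these 5 had an adjusted permutation p of 0.000176 over all genes tested, and without the 2 farthest libraries r was 0.873, 0.868, 0.832, 0.797 and 0.765. Within the 3 number ranges Gstt3 gave 0.895, 0.93 and 0.799, and Prdx4 gave 0.804, 0.911 and 0.867. Gpx3, with the highest level of all members, gave r = 0.0428 (adjusted permutation p = 0.834), which joins opposite signs, at 0.518, 0.24 and -0.515 within the ranges.

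The acinar sum was lowest in AJ, the strain in which 11 members were lowest. With the log2 acinar sum added to the fit as a covariate, chosen after the data had been seen, CAST minus AJ in Gstt3 went from 2.82 to -0.09 ± 0.25 (edgeR adjusted p = 0.783) and PWK minus AJ in Prdx4 went from 2.05 to -0.45 ± 0.26 (adjusted p = 0.15). Differences against AJ became smaller in Gstm7 (1.47 ± 0.19), Cat (0.91 ± 0.25), Gsta3 (0.78 ± 0.34) and Gstk1 (0.46 ± 0.15), and Gstk1 was no longer selective for CAST. Txn1 in NOD minus AJ was 0.84 ± 0.12 against 0.99 without the covariate. Other differences against AJ did not become smaller. Gpx2 in B6 minus AJ was 2.90 ± 0.18 against 2.79 without the covariate. NOD minus AJ was 1.60 ± 0.26 against 1.32 in Gpx8 and 1.07 ± 0.19 against 0.98 in Gpx7. PWK minus AJ in Prdx3 was 0.75 ± 0.10 against 0.72. Between other strains, Gstm2 in CAST minus PWK (3.29 ± 0.27), Gpx3 in 129 minus NZO (2.53 ± 0.21), Gstt1 in NZO minus WSB (1.90 ± 0.10), Gstm5 in WSB minus CAST (1.45 ± 0.08) and Sod3 in NOD minus 129 (4.16 ± 0.26) were near the values without it. Of the 11 selective high and 13 selective low calls, 10 and 11 stayed with the same strain.

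**Figure D5:**
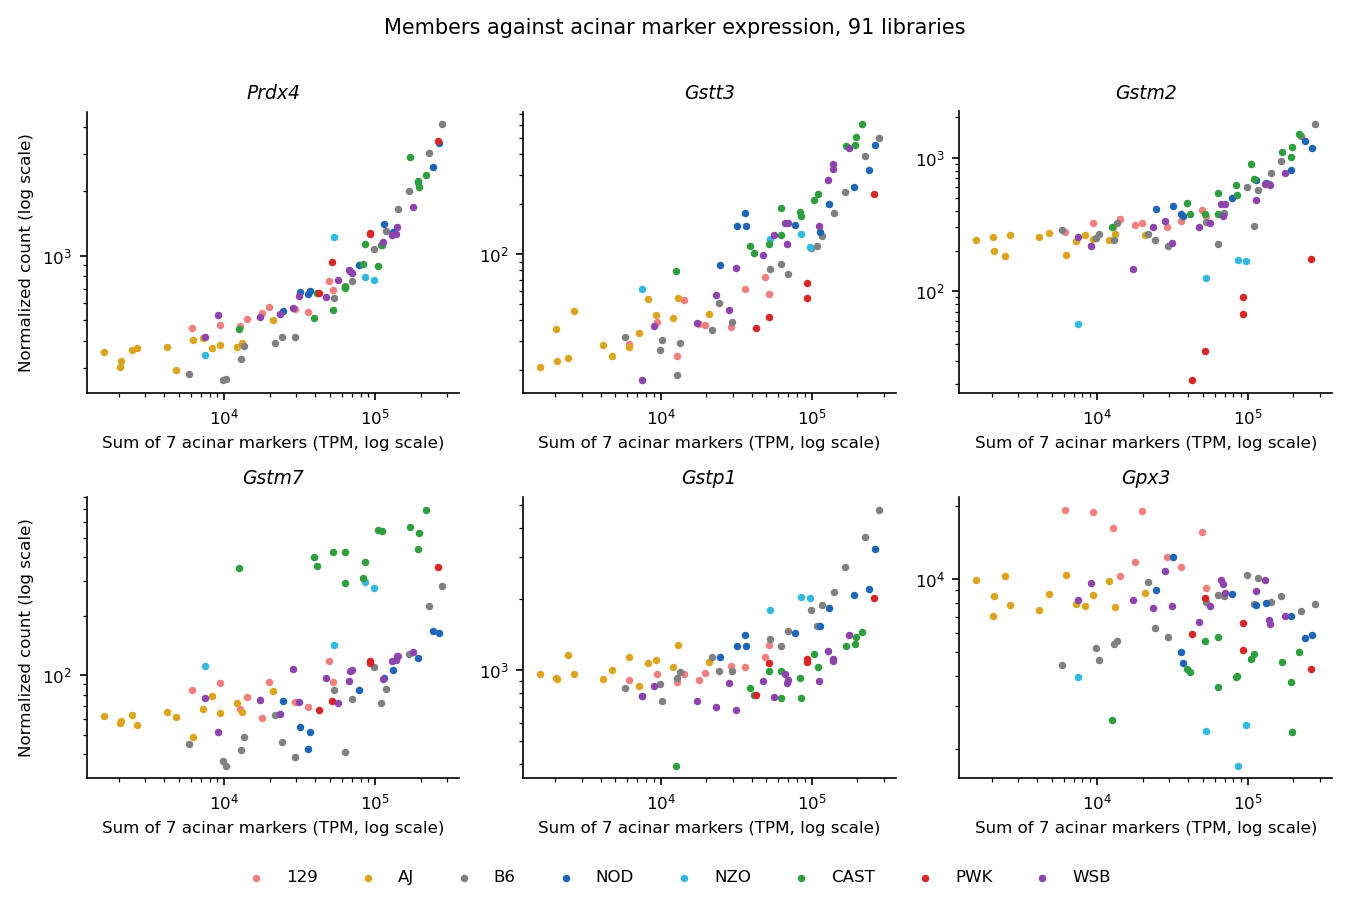
Normalized counts of Prdx4, Gstt3, Gstm2, Gstm7, Gstp1 and Gpx3 (vertical, log) against the summed TPM of 7 acinar markers (horizontal, log) in the 91 libraries, coloured by strain. Prdx4 and Gstt3 rise with the markers, with PWK low for Gstt3, Gstm2 and Gstm7 rise along bands that differ in height between strains, and Gpx3 has no common slope.

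In NOD, members also moved with the lymphocyte markers. Over its 10 libraries 15 of 42 members correlated with the summed lymphocyte markers at an adjusted permutation p under 0.05, 6 positively and 9 negatively. The members' share, 35.7%, was near the 39% of all genes tested. The lymphocyte sum had a median of 1097 TPM in the NOD libraries labelled female and 105 TPM in those labelled male. The part of sex in these correlations was not tested. Sod3 gave r = 0.917 and rho = 0.939 (adjusted permutation p = 0.00457 for r), Gpx8 gave 0.916 and 0.927, and Gpx1 gave 0.832 and 0.915 (adjusted permutation p = 0.0189 for r). Without the 2 farthest libraries these were 0.845, 0.898 and 0.8, whereas Txn1 fell from 0.813 to 0.588. Sod2 (r = -0.893) and Gstm6 (r = -0.839) led the negative side. The NOD library with the lowest lymphocyte sum, 36 TPM, held 211 counts of Sod3, and that with the highest, 3377 TPM, held 1113. Both lie above every 129 library.

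With the lymphocyte sum as a covariate, also chosen after the data had been seen, NOD minus 129 in Sod3 was 3.22 ± 0.30 (edgeR adjusted p = 5.38e-15), against 4.18 without it. The selective calls of Sod3, Gpx1 and Txn1 in NOD were lost, as were those of Sod3 and Gpx1 without the 12 libraries against their sex label, and all 3 in TPM. With the covariate NOD minus AJ in Gpx8 was 0.60 ± 0.29 (adjusted p = 0.0795). NOD also had the highest macrophage markers (median 198 TPM, other strains 32.8 to 84.2) and stromal markers (median 95.5 TPM, others 14.1 to 59.7). Their part in the NOD values was not tested.

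Between the sexes 3 members differed, which is 7.14% of those tested against 4.01% of all genes. Each was lower in males: Gpx3 by -0.32 ± 0.06 (log2 male minus female, SE; edgeR adjusted p = 0.000774), with means of 8446 in the 45 libraries labelled female and 7043 in the 46 labelled male; Gstt1 by -0.23 ± 0.04 (adjusted p = 0.000322), with means of 514 and 439; and Txnrd2 by -0.17 ± 0.04 (adjusted p = 0.00623), with means of 304 and 273. Without the 12 libraries whose sex-linked genes went against their label these were -0.43, -0.26 and -0.21, and Gclm (adjusted p = 0.0498) and Gsto2 (0.0101) were called too, against 9.79% of all genes. With counts summed per sample edgeR called 0 members between the sexes, and 2 had an unadjusted p under 0.05.

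Whether the sex difference varied between strains was tested over the 82 libraries of 129, AJ, B6, CAST, NOD and WSB, where either sex had 5 or more. It did in 9 members, 21.4% of those tested against 5.9% of all genes. The strongest were Gstm7 (edgeR adjusted p = 3.84e-05), Gstp1 (0.000168), Gstm2 (0.00036), Prdx4 (0.000405) and Gsta3 (0.000503). In B6, male minus female was -1.53 ± 0.20 in Gstm7, -1.19 ± 0.17 in Gstp1, -1.58 ± 0.27 in Gstm2, -1.83 ± 0.33 in Prdx4 and -2.25 ± 0.39 in Gsta3, each called. In NOD the same genes had positive values from 0.59 to 1.32, none of them called. Without all 12 libraries against their sex label, of which 2 are NOD, the NOD differences in Gstm7 (adjusted p = 0.0365) and Prdx4 (0.0236) were called. The acinar sum had the same order, with a median of 116904 TPM in B6 females against 13501 in B6 males and 36962 in NOD females against 191662 in NOD males. With the acinar covariate 1 member, Gsto2, still varied (adjusted p = 0.0485), against 0.401% of all genes, and B6 male minus female stayed at -0.90 ± 0.18 in Gstm7 and -0.56 ± 0.13 in Gstp1.

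The wider pathway was described with a list of 86 further genes, of which 84 were tested. All 84 differed between strains, as did 97.4% of all genes, and 41 differed by at least 2-fold, a share near the 44.4% of all genes. The median log2 difference was 0.92 against 0.87 for all genes. The share was highest among other NRF2 targets, at 13 of 18 (median 1.48), followed by other glutathione enzymes at 6 of 11. NADPH supply had 3 of 13 (median 0.59), and the NRF2 regulators had 4 of 9 (median 0.64). NRF2 itself, Nfe2l2, was highest in NOD (1262 ± 171, SD, n = 10) and lowest in AJ (808 ± 182, n = 14), by 0.64 ± 0.09. Its inhibitor Keap1 differed by at most 0.25 ± 0.07.

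By size, Ftl1, the ferritin light chain, led that list with NZO minus PWK at 7.13 ± 0.63. Ftl1 was 172 to 293 in PWK, 302 to 30829 in CAST and 22691 to 44952 in NZO. Ftl1-ps1, a related gene on chromosome 13, held 10234 to 12383 in PWK, 120 to 18386 in CAST and 11202 to 15733 in WSB, against at most 372 in each library of the other strains. The sum of both was 11964 ± 886 (SD, n = 5) in PWK against means from 22337 to 35579 in the other strains, a far smaller gap than that of Ftl1 alone. Hpgds, a glutathione-dependent prostaglandin D synthase, was 650 to 836 in NZO and 13.9 to 53.8 in WSB, a difference of 4.72 ± 0.19 without overlap. Ptges, a prostaglandin E synthase, was 280 to 450 in AJ and 23.6 to 40 in PWK (3.70 ± 0.37). Cth, which makes cysteine, spanned 4.57 ± 0.60 from AJ to CAST, and Ggt1, which cleaves extracellular glutathione, 4.01 ± 0.71 from AJ to PWK. Both had their lowest values in AJ, as did the acinar markers.

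The other untested members were near the limit of detection. Gsta1, Gsta2, Gstm3, Gpx5, Gpx6 and Gstt4 had means of at most 0.273 TPM and were listed at 0 in 77, 81, 40, 90, 74 and 76 of the 91 libraries. A count of 0 allows up to 3 reads. Of these, Gsta1 reached 15.1 TPM in AJ replicate 8 and 0 in every other AJ library. The same library held 111 TPM of Fabp1, 43.6 of Fabp2 and 28.7 of Sis, genes of the intestinal epithelium, where no other AJ library exceeded 0.09, and it is the library with the high Gsta4. Leaving it out changed none of the selective calls.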

How the data were processed

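Whole-islet RNA from 8 mouse strains was sequenced by the authors after mRNA selection, and libraries were made in 4 waves at 2 sites that the labels do not tie to single libraries. Per the labels and the study's methods, the authors quantified each library with RSEM against GENCODE M18 genes on mm10. The deposited expected counts are RSEM's estimated reads per gene, not normalized between libraries, and the deposited TPM values are scaled by transcript length and to the same total in each library. RSEM divides reads shared by near-identical genes in proportion, and reads of every strain were aligned to a B6-based genome, so counts of diverged strains, paralogs and pseudogenes are uncertain. Gene positions and biotypes come from GENCODE M21.

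Expected counts were rounded. The test covered protein-coding genes of chromosomes 1 to 19 and X whose variance was above the lowest 10% and whose counts were non-zero in at least 85% of libraries (15204 genes). edgeR 4.0.16 (R 4.3.3) fitted strain and sex with upper-quartile normalization, and Benjamini-Hochberg adjustment covered all genes, separately in each of 28 strain pairs. The model was checked on simulated counts. Named genes were the 12 with the largest strain difference and a mean of 1 TPM or more, the most abundant of each family, those whose libraries of 1 strain stood wholly apart, up to 5 for each sex result and 5 pathway genes. Correlations used log2 values plus 1 centred within strains. Alternatives included TMM and median-ratio scaling, other filters, DESeq2 1.42.0, limma 3.58.1 with voom and on log2(TPM + 1), counts summed per sample, leaving out libraries, and library number ranges. Covariates for acinar and lymphocyte markers and a fit without AJ replicate 8 were chosen after seeing the data. Members and lists were chosen with earlier results of these data known. Intervals over libraries may hold technical spread.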

Additional observations from a re-analysis of the deposited data

Results flagged for a closer look

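Within NZO, PWK, 129 and NOD, 48 sets of 4 to 10 libraries were screened for a library far from its group, and chance alone would pick about 1 in 20. PWK replicate 4 was the highest of its group for Gstt3 (230 normalized counts), Gstm7 (354), Prdx4 (3432) and Gstk1 (225), each far above the other 4 PWK libraries. Its summed acinar markers were 259829 TPM, against 42602 to 92688 TPM in the others, and these 4 genes correlated with that sum within strains. Gsta4 was far higher in 1 NZO library (59.2) and in 1 library of 129 (14.9) than in the rest of each strain.

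The sex difference varied between strains for 9 members in edgeR's interaction test: Gstm7 (adjusted p = 3.84e-05), Gstp1 (0.000168), Gstm2 (0.00036), Prdx4 (0.000405), Gsta3 (0.000503), Gstt3 (0.00186), Gsto2 (0.00406), Gstm1 (0.00466) and Cat (0.0351). With the acinar sum as a covariate Gsto2 alone was still called.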

How the results depend on the processing

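Of 336 recomputed counts, 305 stayed within 1.5 times the value reported, as did the direction and call of 287 of 289 recomputed differences of the 12 named genes. The exceptions with the acinar covariate were Gstt3 (CAST minus AJ -0.09) and Prdx4 (PWK minus AJ -0.45), both then uncalled. Sizes moved more than directions. With limma on log2(TPM + 1), Sod3 in NOD minus 129 was 2.27 against 4.18, and Gsta4 in WSB minus 129 was 1.78 against 3.71. With limma on log2(TPM + 1), selective calls fell to 4 high and 5 low (16.8% and 9.76% of all genes), and 7 members differed between WSB and B6 (27.9%). With counts summed per sample they were 6 high and 5 low (18.3% and 14.6% of all genes), members differing from B6 numbered 6 in 129 (15.1%), 6 in AJ (16.4%), 9 in CAST (23.2%), 11 in PWK (38%) and 5 in WSB (21.1%), and no member differed between the sexes (0 in edgeR, with 2 at an unadjusted p under 0.05). Without the 12 libraries against their sex label, 8 members were selectively low (18.3% of all genes), 8 differed between 129 and B6 (25.2%), 5 between the sexes (9.79%), and 16 showed an interaction (17.6% of all genes, against 5.9% with these libraries). With the acinar covariate and all 82 libraries of the interaction test, 1 member showed an interaction (0.401%). With the lymphocyte covariate 7 were selectively high (15.8% of all genes) and 12 differed between NOD and B6 (44.1%, against 64.7% without it). In AJ, B6, CAST and WSB, members passing 2-fold numbered 13 with the number range as a covariate (23.3% of all genes), 14 in numbers 1 to 32 (23.6%) and 13 in 34 to 65 (23.6%), pathway genes 17, 22 and 19 (24 in numbers 66 to 100, where 34.3% of all genes passed). AJ differed from B6 in 12 members in 34 to 65 (35.6%). Sex gave 6 with the range covariate (5.73%) and 0 in 1 to 32 (0.178%) and in 66 to 100 (0%), where 6 and 3 had an unadjusted p under 0.05. These fits hold fewer strains or libraries. Leaving out each NZO or PWK library gave 6 to 11 selectively high members, lowest without NZO replicate 2 and next without replicate 3 (7). No paired analysis was possible because the labels give no replicate numbers, and those used here follow the order of accessions and only name a library.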

Other observations

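A pseudogene named after Gpx2 had higher mean counts in PWK and CAST than in the other strains. Gpx2-ps1, a processed pseudogene on chromosome 7 at 100264675 to 100265245 in mm10, was chosen after its values were seen. It held 24.2 to 40.9 normalized counts in PWK and 0 to 44.2 in CAST, and no library of the other strains exceeded 3.45. Gpx2 itself had means of 121 ± 22 (SD, n = 5) in PWK and 138 ± 36.9 (n = 14) in CAST.

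Summed over all 49 members, the level per transcript length was 1200 ± 173 TPM (SD, n = 14) in CAST and 1789 ± 205 TPM (n = 10) in 129, with AJ at 1660 ± 102 and NOD at 1727 ± 556. TPM shares 1 total among all genes, so these sums also move with abundant acinar transcripts.

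Maff, which encodes a small Maf protein that pairs with NRF2, and Sqstm1, whose product binds KEAP1, had their highest strain means in AJ. Maff held 1199, 6616 and 11919 normalized counts in AJ (lowest, median, highest) against 342, 843 and 3224 in 129, and AJ minus 129 was 2.39 ± 0.51 (log2, SE). Sqstm1 held 11139, 17020 and 28637 in AJ and 8356 to 9299 in PWK, without overlap, at 1.09 ± 0.22. Both had higher means in library numbers 1 to 32 than in 34 to 65 in each of AJ, B6, CAST and WSB. In AJ these were 9747 and 3296 for Maff and 22850 and 13074 for Sqstm1. In B6 they were 5018 and 756 for Maff and 18105 and 9559 for Sqstm1. In 34 to 65 the WSB means were 3604 and 13278, above those of AJ. Slc7a11, the cystine transporter subunit, was selectively high in AJ, at 2.74 ± 0.563 TPM (SD, n = 14) against 0.326 ± 0.107 TPM (n = 16) in WSB. Nqo1, a quinone reductase, was highest in WSB, at 26.2 ± 9.01 TPM, and lowest in NOD, at 4.16 ± 1.63 TPM, a log2 difference of 2.75 ± 0.18. These genes were named after their values were seen.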
